A study of Rattus norvegicus with 25 samples.

Results

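The dentate gyrus (DG) of 5 unstressed control rats was compared with that of 3 rats that scored low on anxiety-like behavior after an acute, severe stressor. The 8 libraries were chosen by region, treatment and score as the sample labels give them, out of 25 libraries in the series, and no measured expression value entered the choice apart from the removal of 1 library. That library, from control animal 35, was left out because it stood apart in a principal component analysis, with a PC1 score of 55.95 where the other 11 DG libraries lay between -13.67 and 2.28. For the hippocampal control sample that it excluded, the paper also reports low RNA quality and a second RNA extraction. All animals were adult, wild-type, male Sprague-Dawley rats. Stress-low animals (numbers 22, 33 and 34) had been immobilized for 3 h with predator scent and had composite behavior scores of 0 to 2, while controls (numbers 2, 14, 17, 28 and 32) had stayed in the home cage and came from across a score range of 0 to 6. Controls received a cage change, while stressed animals were also bled from the tail during stress and kept apart from the controls for 2 nights. All animals, controls included, went through behavioral tests on days 7 and 8. Tissue was taken on day 9 after stress as 7 to 9 punches of the left dorsal DG per animal, and poly-A RNA was sequenced with 1 library per animal. Library names mark controls 14, 17 and 32 as high and controls 2 and 28 as low in score. The comparison asks what distinguishes the DG of stressed animals with low scores from the DG of animals that were never stressed. The paper found no significant difference in score between these groups. The controls were not all low in score, so that stress and score cannot be fully told apart.

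The DG is the entry station of the hippocampal circuit. Its granule cells receive cortical input and send mossy fibers to CA3, and new granule cells are added to it throughout adult life. It is rich in receptors for glucocorticoids, the steroid hormones released during stress, and single stressors are known to change granule cell excitability, activity-dependent transcription and the birth of new neurons. Punches also hold astrocytes, oligodendrocytes, microglia and blood vessels, so that in bulk tissue fewer cells of a type and less RNA per cell cannot be told apart.

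Total expected counts, the estimated number of reads assigned to genes, were 13487835 to 19135223 in the controls and 11656439 to 15547038 in the stress-low animals. The tissue carried the granule cell transcripts Prox1 (63.0 to 95.5 TPM) and C1ql2 (284.5 to 504 TPM) in all 8 libraries, where TPM is a level corrected for transcript length and library size, while the choroid plexus transcript Ttr was listed at 0 in 7 libraries and at 0.24 TPM in stress-low animal 33. The 3 stress-low animals all had animal numbers above 20, as did controls 28 and 32 but not controls 2, 14 and 17. Rats were run in cohorts, and the cohort of each animal is not given in the sources used here. For this reason each gene named below as higher or lower that did not keep an unadjusted p under 0.05 against controls 28 and 32 alone, or without 1 animal, is listed with its log2 fold change at the end of its paragraph.

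No gene passed an adjusted p of 0.05 among 14080 gene models tested with edgeR's quasi-likelihood test. The threshold used below is therefore an unadjusted p of 0.05. It was met by 972 gene models (6.90%), of which 546 (3.88%) were higher and 426 (3.03%) lower in stress-low animals. The differences were small, with a median absolute log2 fold change of 0.244 among the 972 gene models against 0.0901 over all tested, and 817 of the 972 were under 0.5 on that scale. The TPM values of the 3 stress-low animals all lay outside the range of the 5 controls for 523 gene models (3.71%), and 337 (2.39%) met both conditions. Against controls 28 and 32 alone 1205 gene models (8.66%) had an unadjusted p under 0.05, including 460 of the 972, and 1 (0.00718%) had an adjusted p under 0.05. DESeq2 gave 876 (6.22%) at an unadjusted and 4 (0.0284%) at an adjusted p under 0.05, Slitrk5 and Tcp11l1 among them. Without control animal 14 the number was 1587, and without stress-low animal 33 it was 581.

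Values per animal are listed in the order 2, 14, 17, 28 and 32 for controls and 22, 33 and 34 for stress-low animals, and other levels are means ± SD over the 5 controls and the 3 stress-low animals. Slitrk5, a synaptic adhesion protein that also interacts with the neurotrophin receptor TrkB, was higher in stress-low animals, with 38.1, 39.7, 41.4, 42.3 and 42.8 TPM in the controls and 46.9, 51.4 and 46.4 TPM in the stress-low animals. Its groups did not overlap (log2 fold change 0.25 with an SE of 0.054, adjusted p = 0.718 with edgeR). Tcp11l1, whose function in neurons is little known, showed 13.3, 11.5, 16.6, 11.7 and 13.8 TPM in the controls and 19.4, 21.0 and 17.6 TPM in the stress-low animals. All 3 stress-low animals were above the highest control, animal 17, and the mean was 47.0% higher (log2 fold change 0.56 with an SE of 0.11). Its value against controls 28 and 32 was 0.64.

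The study names 25 genes for this comparison in its own test. Since that list was chosen on these same animals, it is not independent evidence of any direction, and its values are given as a description. Of the 25 names, 24 were found and 16 of these were held by a single gene model. All 16 had an unadjusted p under 0.05, 7 higher and 9 lower in stress-low animals. In 14 the groups did not overlap, as in 3.71% of all genes and in 337 of the 972 gene models. Their absolute log2 fold changes ran from 0.138 (Nsg2) to 1.06 (Tbx19) with a median of 0.225, so that the typical difference on this list was of the size seen over all 972 gene models. None passed the adjusted threshold. Against controls 28 and 32 alone all 16 kept their sign and 14 had an unadjusted p under 0.05. That fit reuses the same stress-low animals. Of the 972 gene models, the 960 fitted there all kept their sign too, and 460 had an unadjusted p under 0.05. Keeping the sign there is therefore not separate evidence.

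**Figure D1:**
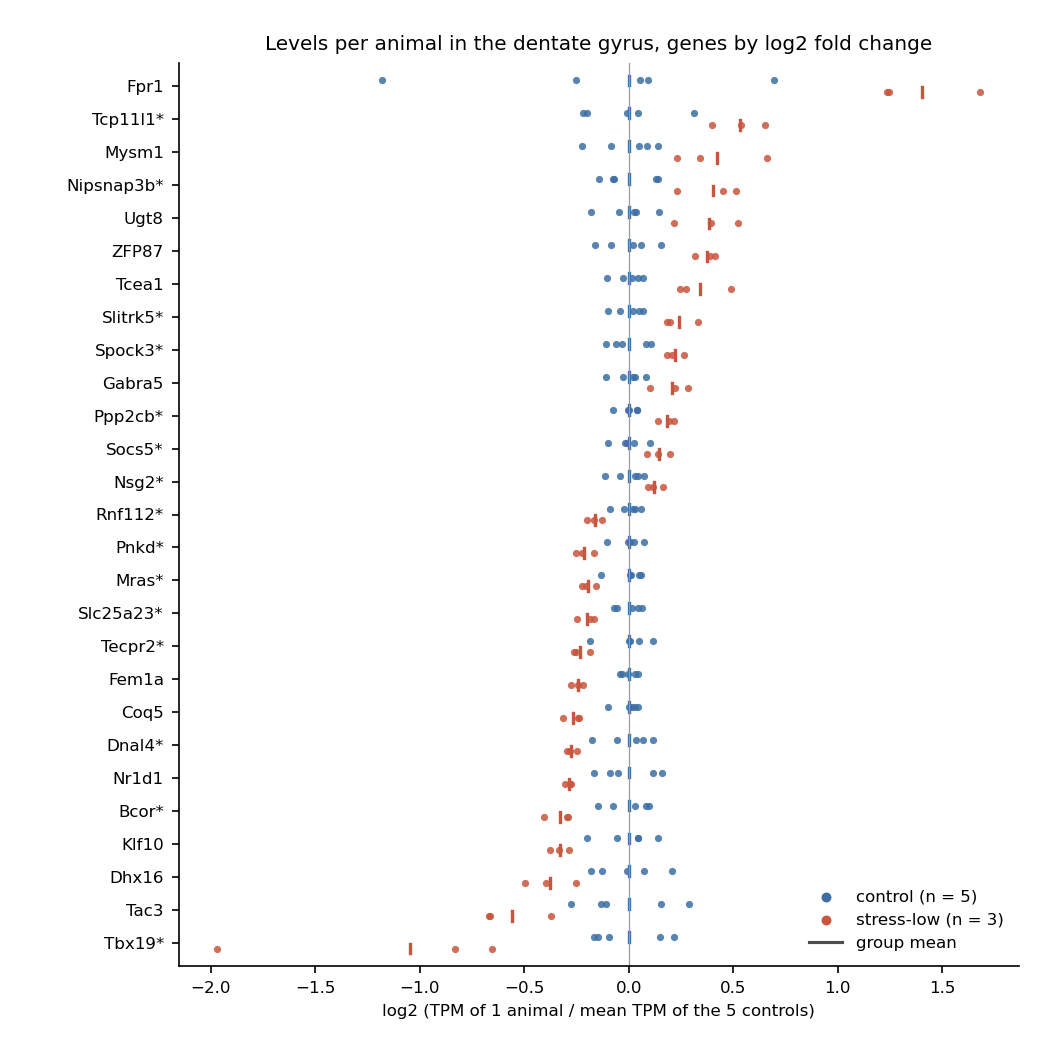
Level of each gene in each animal, as the log2 ratio of TPM to the mean of the 5 controls, for single-model genes that the study names (asterisk) and the further genes with the smallest p-values, with controls in blue, stress-low animals in red and group means as vertical bars. In most rows the 3 red points lie on one side of the blue points by less than 0.5, and Fpr1 and Tbx19 show the widest distances.

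The lower genes on that list act at several levels. Tbx19 encodes the T-box factor that drives proopiomelanocortin transcription in pituitary corticotrophs. Its levels in the DG were near the lower end of detection, with 3.51, 2.83, 2.69, 3.35 and 2.73 TPM in the controls and 0.770, 1.70 and 1.92 TPM in the stress-low animals, which rest on 57 to 82 reads in the controls and 18 to 37 in the stress-low animals. The mean was 51.9% lower (log2 fold change -1.06 with an SE of 0.25), with animal 22 the lowest. Bcor encodes a corepressor of BCL6 and part of a noncanonical Polycomb complex. It stood at 8.12, 7.55, 7.20, 8.53 and 8.43 TPM in the controls and 6.02, 6.52 and 6.50 TPM in the stress-low animals and the groups did not overlap (log2 fold change -0.31 with an SE of 0.077). Rnf112, a brain-enriched RING finger protein, was measured at 276, 254, 281, 274 and 265 TPM in the controls and 240.3, 235 and 247 TPM in the stress-low animals. Here too all 3 stress-low animals were under the lowest control (log2 fold change -0.15 with an SE of 0.043). Dnal4, a dynein light chain, was 73.8 ± 5.85 TPM in controls and 61.0 ± 0.997 TPM in stress-low animals (log2 fold change -0.26, SE 0.062). Slc25a23, a calcium-regulated mitochondrial carrier of adenine nucleotides, was 369 ± 15.1 TPM in controls and 321 ± 9.29 TPM in stress-low animals (log2 fold change -0.18, SE 0.049). Both were lower in each of the 3 stress-low animals than in any control. Mras, a Ras-related GTPase that works with Shoc2 and a protein phosphatase to activate Raf, was 162 ± 8.37 TPM in controls and 142 ± 3.43 TPM in stress-low animals (log2 fold change -0.18, SE 0.049). Pnkd, the gene of paroxysmal nonkinesigenic dyskinesia, was 153 ± 6.78 TPM in controls and 132 ± 4.12 TPM in stress-low animals (log2 fold change -0.17, SE 0.057). Tecpr2, which takes part in autophagy and secretion, was 22.7 ± 1.70 TPM in controls and 19.3 ± 0.576 TPM in stress-low animals (log2 fold change -0.21, SE 0.067), and its groups touched, since stress-low animal 33 at 19.97 TPM was just above control animal 14 at 19.95 TPM. Pnkd (-0.12, SE 0.060) did not reach an unadjusted p under 0.05 against controls 28 and 32 alone.

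The higher genes were headed by Tcp11l1 and Slitrk5, described above. Nipsnap3b, a member of a family of mitochondrial proteins, was at 19.0, 18.2, 21.9, 19.1 and 22.1 TPM in the controls and 23.5, 27.4 and 28.6 TPM in the stress-low animals. The groups did not overlap, although animal 22 was close to the highest controls (log2 fold change 0.41 with an SE of 0.10). Spock3, an extracellular proteoglycan of the testican family, was at 48.4, 46.9, 53.5, 54.3 and 49.3 TPM in the controls and 57.4, 60.6 and 58.3 TPM in the stress-low animals (log2 fold change 0.24 with an SE of 0.060). Ppp2cb encodes a catalytic subunit of protein phosphatase 2A and was at 136, 147, 144, 147 and 144 TPM in the controls and 158, 164 and 167 TPM in the stress-low animals. The controls spanned only 136 to 147 TPM, and every stress-low animal was above them (log2 fold change 0.19 with an SE of 0.053). Socs5, a suppressor of cytokine signaling, was 42.9 ± 2.16 TPM in controls and 47.4 ± 1.77 TPM in stress-low animals (log2 fold change 0.16, SE 0.048), with stress-low animal 34 at 45.6 TPM inside the control range. Nsg2, a neuron-specific endosomal protein that binds AMPA receptors, was 688 ± 35.9 TPM in controls and 749.6 ± 19.1 TPM in stress-low animals (log2 fold change 0.14, SE 0.045), without overlap and with the smallest log2 fold change of the 16 genes. Nsg2 (0.089, SE 0.052) did not reach an unadjusted p under 0.05 against controls 28 and 32 alone.

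The other 8 names found belong to more than 1 gene model, and the models of a name did not always go together. UBALD1 had 26, 0, 22, 21 and 35 expected counts in control animals 2, 14, 17, 28 and 32 and 0 in each stress-low animal. The second model of the name was far more abundant, with 162, 146, 157, 164 and 176 TPM in the controls and 179.8, 147 and 173 TPM in the stress-low animals, and its groups overlapped. With both models summed the log2 fold change was 0.045 (SE 0.082). ATN1 was counted only in control animals 17 and 28 (93 and 62 expected counts), and FAAH only in controls 2 and 17 (62 and 75). CTTN was counted only in stress-low animal 33 (88 expected counts). Summed with their abundant partners these 3 names had log2 fold changes of -0.073, -0.10 and -0.013. For Hmgb3, a chromatin protein of the high mobility group, the models went in opposite directions, at 28.8 ± 2.57 TPM in controls and 36.6 ± 0.382 TPM in stress-low animals for the longer model (log2 fold change 0.35, SE 0.090) and 29.3 ± 6.03 TPM in controls and 19.9 ± 1.66 TPM in stress-low animals for the shorter (log2 fold change -0.56, SE 0.34). Their sum had a log2 fold change of 0.20 (SE 0.067). The ribosomal names Rps18, Rps20 and Rps28 each had 1 abundant model and 1 model under 50 TPM, and the abundant ones are given with the ribosome below. The same splitting touched the gene model named RRAGB, the adjusted call against controls 28 and 32, chosen here after its values were seen. RRAGB had 0 expected counts in 4 controls, 121 in control animal 14 and 52 to 91 in the stress-low animals, beside 995 to 1608 for its second model.

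Outside that list, the genes with the smallest p-values and no overlap were mixed in function. Fpr1, a receptor for formylated peptides on innate immune cells, was at 0.730, 0.750, 1.14, 0.590 and 0.310 TPM in the controls and 1.66, 1.67 and 2.26 TPM in the stress-low animals (log2 fold change 1.40 with an SE of 0.35). Ugt8 makes galactocerebroside, the main glycolipid of myelin. It was at 14.1, 14.8, 16.1, 12.8 and 14.8 TPM in the controls and 16.9, 20.8 and 19.1 TPM in the stress-low animals and all 3 stress-low animals were above the highest control (log2 fold change 0.40 with an SE of 0.089). Gabra5, the subunit of extrasynaptic GABA-A receptors that carry tonic inhibition in the hippocampus, was at 105, 96.2, 109.8, 106 and 102 TPM in the controls and 126, 121 and 111 TPM in the stress-low animals. The lowest stress-low animal, 34, was just above control animal 17 (log2 fold change 0.22 with an SE of 0.059). Tcea1, a transcription elongation factor, was 41.4 ± 1.96 TPM in controls and 52.5 ± 4.91 TPM in stress-low animals (log2 fold change 0.35, SE 0.087). Mysm1, a histone H2A deubiquitinase, was 14.6 ± 1.46 TPM in controls and 19.6 ± 3.12 TPM in stress-low animals (log2 fold change 0.43, SE 0.12), and ZFP87, a zinc finger protein, was 10.2 ± 0.874 TPM in controls and 13.2 ± 0.464 TPM in stress-low animals (log2 fold change 0.39, SE 0.10).

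Among the lower genes, Nr1d1 encodes the clock repressor REV-ERBα. It was at 66.5, 61.6, 74.9, 77.2 and 64.9 TPM in the controls and 55.9, 57.0 and 56.7 TPM in the stress-low animals. The 3 stress-low animals lay close together and under every control (log2 fold change -0.27 with an SE of 0.069). Tac3, the precursor of the tachykinin neurokinin B, was at 65.6, 44.3, 49.9, 49.0 and 59.8 TPM in the controls and 41.6, 33.9 and 33.8 TPM in the stress-low animals (log2 fold change -0.55 with an SE of 0.14). Klf10, a transcription factor induced by TGF-β, was 24.1 ± 2.12 TPM in controls and 19.1 ± 0.602 TPM in stress-low animals (log2 fold change -0.32, SE 0.083). Coq5, a methyltransferase of coenzyme Q synthesis, was 40.5 ± 1.58 TPM in controls and 33.7 ± 1.01 TPM in stress-low animals (log2 fold change -0.25, SE 0.057), with controls between 37.8 and 41.8 TPM and stress-low animals between 32.5 and 34.3 TPM. Dhx16, a splicing helicase, was 25.2 ± 2.76 TPM in controls and 19.4 ± 1.65 TPM in stress-low animals (log2 fold change -0.36, SE 0.086), and Fem1a, a substrate receptor of a ubiquitin ligase, was 34.5 ± 0.881 TPM in controls and 29.1 ± 0.589 TPM in stress-low animals (log2 fold change -0.23, SE 0.058). For each of the genes of this and the preceding paragraph, every fit without 1 of the 8 animals kept the sign and an unadjusted p under 0.05. These genes were picked for small p-values and no overlap in the same animals, so that this is not separate evidence.

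Ribosomal protein genes leaned to the lower side in stress-low animals. These genes encode the proteins of the small (40S) and large (60S) ribosomal subunits and are transcribed at high rates from short promoters. Of 44 small-subunit gene models tested 11 were lower and 0 higher at an unadjusted p under 0.05, and of 57 large-subunit models 13 were lower and 0 higher, against 3.03% lower and 3.88% higher over all genes. The median log2 fold changes were -0.102 and -0.093, against -0.00301 over all 14080, and 42 of the 44 and 50 of the 57 models had a negative sign. None passed the adjusted threshold. The groups did not overlap in 2 small-subunit and 3 large-subunit models, where the share over all genes was 3.71%. The genes do not vary independently, so that 24 lower models are not 24 separate observations. Many have processed copies elsewhere in the genome that share reads, and the 49 models whose name is held once gave 8 lower, 0 higher and a median of -0.0948.

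The abundant model of Rps28 was at 1281, 1110.4, 1299, 1285 and 1348 TPM in the controls and 1088, 1004 and 1097 TPM in the stress-low animals. All stress-low animals were under the controls, the nearest being control animal 14 (log2 fold change -0.26 with an SE of 0.059). Rps18 was at 896, 784, 865, 855 and 878 TPM in the controls and 778, 753 and 752 TPM in the stress-low animals and again animal 14 was the control closest to the stress-low group (log2 fold change -0.17 with an SE of 0.048). Rps20 was 743 ± 42.4 TPM in controls and 661 ± 24.8 TPM in stress-low animals (log2 fold change -0.17, SE 0.051), where animal 14 at 670.7 TPM lay below stress-low animal 34 at 682 TPM. Of the large subunit, Rpl6 was 467 ± 22.5 TPM in controls and 399.9 ± 14.7 TPM in stress-low animals (log2 fold change -0.22, SE 0.059), Rpl39 was 919 ± 40.2 TPM in controls and 817 ± 17.0 TPM in stress-low animals (log2 fold change -0.18, SE 0.054) and Rpl36 was 570.3 ± 43.0 TPM in controls and 490.3 ± 46.6 TPM in stress-low animals (log2 fold change -0.23, SE 0.077). Rpl36 without animal 33 (-0.17) no longer had an unadjusted p under 0.05.

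The start regions of these genes are shown because many mammalian ribosomal protein genes begin at a C within a run of pyrimidines, the terminal oligopyrimidine tract through which their translation is controlled together. Of 23 ribosomal protein names that were lower, 18 had 1 entry in the RefSeq promoter table (rat build GRCr8, not the build of the counts). The letters CTTCC or CTTTCC were searched on the coding strand from 10 bases before to 30 bases after the annotated start. They were present in 13 of these 18 genes, in 32 of 63 ribosomal protein entries (50.8%) and in 2445 of 27457 promoters (8.90%), while the reverse complements were present in 4.76% of the ribosomal entries and 10.7% of all. The stretches below hold 50 bases before and 30 bases after the start, 5′ to 3′ on the coding strand, for 7 lower genes that hold a match, with the matched letters in capitals. Rps28 is shown as a gene without a match.
Rps18: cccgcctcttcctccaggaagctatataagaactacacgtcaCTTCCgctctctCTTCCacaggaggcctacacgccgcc
Rpl39: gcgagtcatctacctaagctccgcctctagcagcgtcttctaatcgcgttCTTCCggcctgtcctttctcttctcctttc
Fau: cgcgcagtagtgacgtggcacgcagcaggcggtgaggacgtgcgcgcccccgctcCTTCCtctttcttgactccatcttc
Rpl19: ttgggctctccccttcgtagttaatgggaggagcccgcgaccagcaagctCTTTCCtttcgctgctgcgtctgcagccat
Rpl37: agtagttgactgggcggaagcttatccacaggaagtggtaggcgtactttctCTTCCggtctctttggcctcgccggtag
Rps15: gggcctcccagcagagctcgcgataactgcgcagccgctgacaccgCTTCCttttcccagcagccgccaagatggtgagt
Rps27: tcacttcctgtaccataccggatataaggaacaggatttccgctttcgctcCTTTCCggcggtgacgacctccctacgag
Rps28: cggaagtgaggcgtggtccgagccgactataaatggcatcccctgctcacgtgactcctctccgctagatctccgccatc
They lie at chr20:4933695-4933774 (plus strand), chrX:121195867-121195946 (minus strand), chr1:212779463-212779542 (plus strand), chr10:83519014-83519093 (plus strand), chr2:55942895-55942974 (plus strand), chr7:10068086-10068165 (minus strand), chr2:177964577-177964656 (minus strand) and chr7:15311304-15311383 (minus strand). In each of the 7 genes a match begins within 10 bases of the start. A match is a description of the letters only.

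Fau, which encodes ribosomal protein S30 fused to a ubiquitin-like peptide, was 1220.1 ± 76.5 TPM in controls and 1087 ± 42.4 TPM in stress-low animals (log2 fold change -0.17, SE 0.054). Rpl19 was 990.0 ± 81.0 TPM in controls and 888 ± 16.6 TPM in stress-low animals (log2 fold change -0.15, SE 0.056) and Rpl37 was 2244 ± 189 TPM in controls and 1995 ± 98.7 TPM in stress-low animals (log2 fold change -0.18, SE 0.068). Rps15 was 1405 ± 139 TPM in controls and 1225 ± 87.1 TPM in stress-low animals (log2 fold change -0.20, SE 0.075) and Rps27 was 1806 ± 147 TPM in controls and 1590.4 ± 111 TPM in stress-low animals (log2 fold change -0.20, SE 0.075). These genes differed by 9.99% to 13.1%. Rpl19 without animal 33 (-0.14), Rpl37 without animal 33 (-0.15) and Rps15 without animal 33 or 34 (-0.19 to -0.15) no longer had an unadjusted p under 0.05. Rps27 without animal 33 or 34 (-0.18 to -0.15) no longer had an unadjusted p under 0.05.

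Genes of the mitochondrial respiratory chain, which carry out oxidative phosphorylation, leaned the same way. Of 80 nuclear-encoded gene models 11 were lower and 0 higher (3.03% and 3.88% over all genes), with a median log2 fold change of -0.0708. Ndufa6, a subunit of complex I, was at 377, 353, 387, 366 and 359 TPM in the controls and 327, 295 and 349 TPM in the stress-low animals without overlap (log2 fold change -0.19 with an SE of 0.061). Cox7b of complex IV was 764 ± 56.4 TPM in controls and 642 ± 65.9 TPM in stress-low animals (log2 fold change -0.26, SE 0.092) and Atp5g2 of the ATP synthase was 507 ± 41.5 TPM in controls and 448 ± 27.6 TPM in stress-low animals (log2 fold change -0.18, SE 0.063). The number of lower models hung on single animals, being 26 without stress-low animal 22, 1 without animal 33 and 3 without animal 34 or without control animal 2. Against controls 28 and 32 it was 4 of 80, a share near the 4.09% of all genes that were lower there. Of 9 mitochondrially encoded models only MT-ATP8 had an unadjusted p under 0.05, at 10352, 20223, 11396, 11221 and 10628 TPM in the controls and 25242, 25681 and 14057 TPM in the stress-low animals (log2 fold change 0.75 with an SE of 0.26), and control animal 14 at 20223 TPM was above stress-low animal 34. The gene overlaps MT-ATP6, whose log2 fold change was 0.091 (SE 0.12). Ndufa6 (-0.15, SE 0.082) did not reach an unadjusted p under 0.05 against controls 28 and 32 alone. Ndufa6 without animal 33 (-0.13), Cox7b without animal 33 (-0.18) and Atp5g2 without animal 22 (-0.15) no longer had an unadjusted p under 0.05. MT-ATP8 without animal 22 or 33 (0.60 to 0.63) no longer had an unadjusted p under 0.05.

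**Figure D2:**
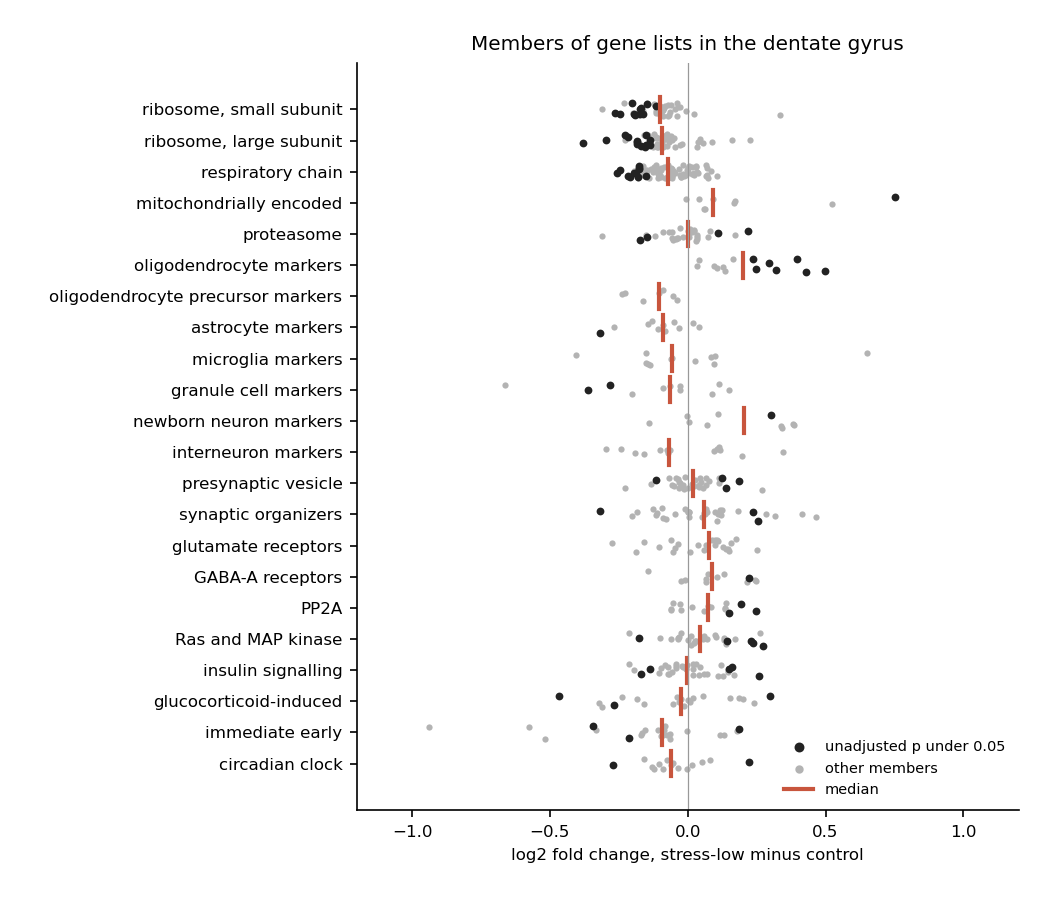
Log2 fold change (stress-low minus control) of every tested member of 22 gene lists, with members at an unadjusted p under 0.05 in black, others in gray and the list median as a red bar. The black points of both ribosomal lists and of the respiratory chain are all on the lower side and those of the oligodendrocyte markers all on the higher side, with medians of -0.102, -0.093, -0.0708 and 0.2.

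Transcript length moved with these groups. When the gene models were divided into 5 equal classes by length, the class with the shortest transcripts (183 to 1231 bases) had 1.67% higher and 4.58% lower, and the class with the longest (3485 to 17543 bases) had 5.43% higher and 1.95% lower. Of the 101 ribosomal models 99 and 66 of the 80 respiratory chain models belonged to the shortest class. Without both groups the shortest class had 1.77% higher and 3.55% lower and a median log2 fold change of -0.0332, and abundant short genes outside both groups (450 models with a mean of at least 100 TPM) had 2.44% higher, 4.22% lower and a median of -0.043, against -0.102 for the ribosomal models of the same length class. The shift was not shared by all stress-low animals. The median deviation of the shortest class from the control mean was -0.0883 in stress-low animal 33, -0.02 in animal 34 and 0.0155 in animal 22, and in the controls it ran from -0.0282 (animal 17) to 0.0439 (animal 2). The part of length in the ribosomal and respiratory chain differences was not tested.

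**Figure D3:**
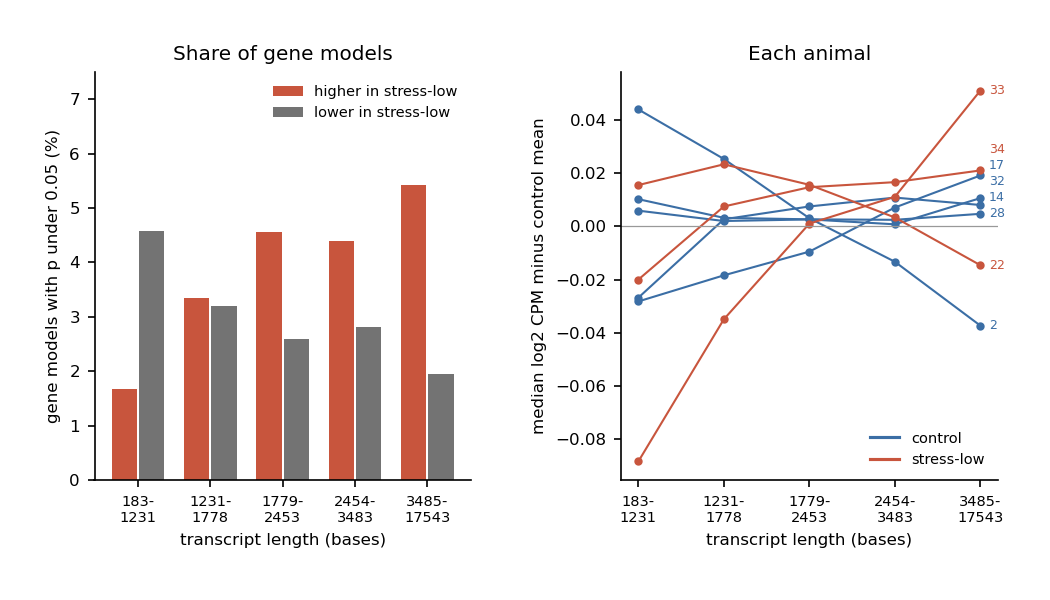
Left, share of gene models with an unadjusted p under 0.05 that were higher (red) or lower (gray) in stress-low animals, by 5 classes of transcript length in bases. Right, median deviation of log2 CPM (counts scaled by library size) from the control mean in each animal, controls in blue and stress-low animals in red, where animals 33 and 2 mark the ends in the shortest class at -0.0883 and 0.0439.

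Animal by animal, the median deviation of the small-subunit models was -0.0261, -0.125 and -0.145 in stress-low animals 22, 33 and 34. In the controls it was 0.061, -0.106, -0.0162, 0.0312 and 0.0175 for animals 2, 14, 17, 28 and 32. Control animal 14 thus stood with the stress-low animals and animal 22 stood near the controls. Without animal 14 the small- and large-subunit models lower numbered 17 and 21, and without animal 33 they numbered 5 and 4. Against controls 28 and 32 alone they numbered 12 and 15, with medians of -0.139 and -0.134, where 4.09% of all genes were lower.

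**Figure D4:**
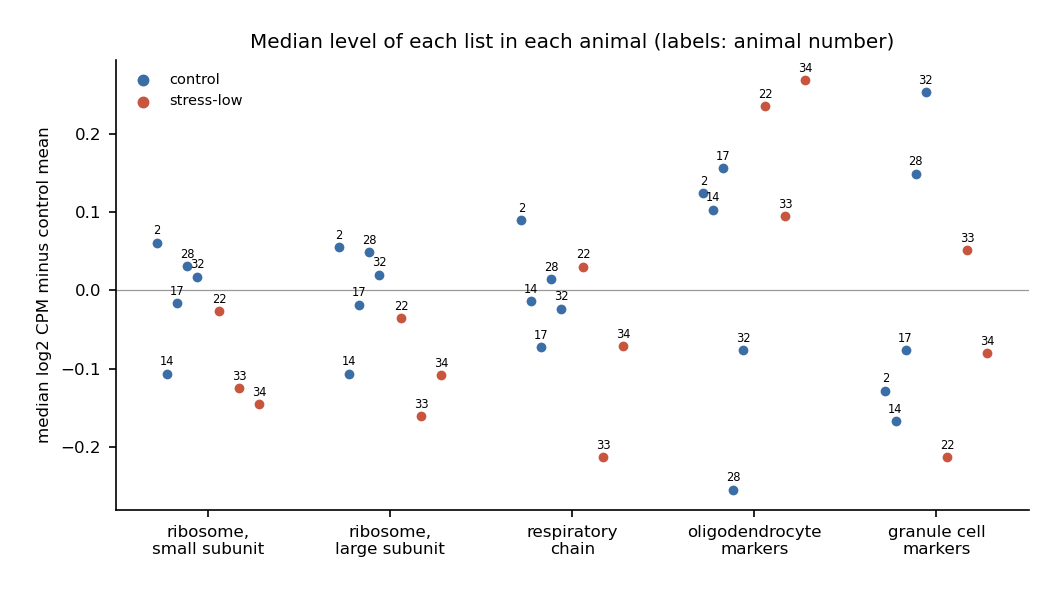
Median deviation of log2 CPM from the control mean for the members of 5 lists in each animal, with controls in blue, stress-low animals in red and animal numbers above the points. Control animal 14 lies at -0.106 in both ribosomal lists beside the stress-low animals, and controls 28 and 32 have the lowest oligodendrocyte and the highest granule cell values.

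Oligodendrocyte markers leaned to the higher side in stress-low animals. Oligodendrocytes make the myelin around axons, and their markers here are enzymes and structural proteins of the mature cell. All 14 markers had a positive sign and 7 had an unadjusted p under 0.05, with 0 lower and a median log2 fold change of 0.2, where 3.88% of all genes were higher. Beside Ugt8, described above, GJB1, the gap junction protein connexin 32, was at 4.68, 4.24, 4.83, 3.07 and 4.08 TPM in the controls and 7.04, 4.46 and 5.98 TPM in the stress-low animals (log2 fold change 0.50 with an SE of 0.19). Stress-low animal 33 was inside the control range. Aspa, Opalin, Cldn11 and Ermn were also higher, with log2 fold changes of 0.43, 0.32, 0.29 and 0.25. The abundant myelin genes MBP, Mobp and Mag did not pass (0.11, 0.10 and 0.032, SE 0.10, 0.11 and 0.11). Summed over the 14 genes the level was 1715 to 2337 TPM in controls and 2145 to 2327 TPM in stress-low animals, so that the groups overlapped, the low end being controls 28 (1715 TPM) and 32 (1986 TPM). Opalin (0.32, SE 0.17) did not reach an unadjusted p under 0.05 against controls 28 and 32 alone. Aspa (0.65, SE 0.20), Cldn11 (0.50, SE 0.13) and Ermn (0.38, SE 0.085) had log2 fold changes over 1.5 times as large against controls 28 and 32 alone. GJB1 without animal 22 (0.32), Aspa without animal 28, 32, 22, 33 or 34 (0.33 to 0.45) and Opalin without animal 2, 28, 22 or 34 (0.25 to 0.28) no longer had an unadjusted p under 0.05. Cldn11 without animal 14, 28, 32, 22 or 34 (0.21 to 0.30) and Ermn without animal 28, 32, 22, 33 or 34 (0.20 to 0.27) no longer had an unadjusted p under 0.05.

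The number of oligodendrocyte markers called higher depended on the animals set against each other. It was 2 without control animal 28, 3 without control animal 32, 1 without stress-low animal 22, 4 without animal 33 and 2 without animal 34. Against controls 28 and 32 alone 10 of 14 were higher with a median of 0.395, where 4.57% of all genes were higher. In the same 2 controls the granule cell markers were high, with median deviations of 0.149 and 0.253 against -0.167 to -0.0761 in the other controls. Against these 2 controls 5 of 11 granule cell markers were lower, where 4.09% of all genes were lower. Over all 5 controls 2 of these 11 were lower (Pdzd2 and Maml2, log2 fold changes -0.36 and -0.28), where 3.03% of all genes were lower. Here 0 were higher and Prox1 stood at -0.028 (SE 0.15). Lct and Tdo2, the remaining granule cell markers, did not pass the filter on low counts. The part of the cell mixture of each punch was not tested. Pdzd2 without animal 17 or 33 (-0.29 to -0.28) and Maml2 without animal 22 or 34 (-0.26 to -0.20) no longer had an unadjusted p under 0.05.

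Markers of other cell types were seldom called, where 3.88% of all genes were higher and 3.03% lower. None of 7 oligodendrocyte precursor markers, 12 microglial markers, 14 interneuron markers, 9 vascular markers or 7 meningeal markers had an unadjusted p under 0.05, nor any of the markers of CA1, CA3, mossy cells, thalamus or blood that were tested. All 7 precursor markers had a negative sign (median -0.103). Of 11 astrocyte markers 1 was lower, Mfge8, a secreted protein that tags cells for phagocytosis, at 108, 90.3, 121, 84.1 and 99.4 TPM in the controls and 80.5, 83.8 and 75.4 TPM in the stress-low animals (log2 fold change -0.32 with an SE of 0.091). Of 10 markers of newborn neurons 8 had a positive sign, with a median log2 fold change of 0.205. Against controls 28 and 32 alone the median was 0.0564. Only 1 of the 10 was called higher, Dcx, a microtubule protein of migrating neuroblasts. It was at 5.27, 7.77, 7.39, 6.22 and 8.73 TPM in the controls and 7.24, 9.97 and 8.77 TPM in the stress-low animals (log2 fold change 0.30 with an SE of 0.14). Its groups overlapped, and against controls 28 and 32 alone the log2 fold change was 0.24 (SE 0.16). Meningeal markers summed to 5.85 to 19.1 TPM in stress-low animals and 6.53 to 24.3 TPM in controls, and 1 of the 8 choroid plexus and ependymal models passed the filter. Mfge8 (-0.18, SE 0.085) did not reach an unadjusted p under 0.05 against controls 28 and 32 alone. Dcx without animal 2, 17, 28, 33 or 34 (0.19 to 0.30) no longer had an unadjusted p under 0.05.

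Genes of the synapse showed isolated differences. Of 32 presynaptic vesicle genes 3 were higher and 1 lower, where the shares over all genes were 3.88% and 3.03%, so that the counts in this paragraph are near the background or rest on 1 to 3 genes. Snap25, a SNARE protein of vesicle fusion, was at 1358, 1578, 1387, 1450.4 and 1387 TPM in the controls and 1573, 1622 and 1656 TPM in the stress-low animals (log2 fold change 0.19 with an SE of 0.066). Control animal 14 at 1578 TPM was inside the stress-low range, and the other 4 controls were below it. Cplx2, a complexin that clamps fusion, was 970.1 ± 51.4 TPM in controls and 891 ± 23.3 TPM in stress-low animals (log2 fold change -0.11, SE 0.047). Of 35 synaptic organizers 2 were higher, Slitrk5 and Spock3, and 1 lower, the adhesion protein Flrt1 (log2 fold change -0.32, SE 0.13). None of 24 glutamate receptor genes was called in either direction (median 0.0768), and of 12 GABA-A receptor genes 1 was higher, Gabra5. Cnr1, the cannabinoid receptor on presynaptic terminals, was 79.5 ± 7.89 TPM in controls and 92.4 ± 6.40 TPM in stress-low animals (log2 fold change 0.23, SE 0.087), the only one of 12 endocannabinoid genes called. Cplx2 (-0.092, SE 0.056) and Flrt1 (-0.34, SE 0.17) did not reach an unadjusted p under 0.05 against controls 28 and 32 alone. Cplx2 without animal 2, 33 or 34 (-0.12 to -0.092), Flrt1 without animal 17, 32 or 22 (-0.29 to -0.16) and Cnr1 without animal 33 (0.17) no longer had an unadjusted p under 0.05.

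Subunits of protein phosphatase 2A, a serine/threonine phosphatase built from scaffold, catalytic and regulatory subunits, were higher in 3 of 15 cases and lower in none, where 3.88% of all genes were higher. Beside the catalytic Ppp2cb these were the regulatory subunits Ppp2r2a, at 72.9, 83.7, 65.2, 76.9 and 74.2 TPM in the controls and 88.5, 86.6 and 88.8 TPM in the stress-low animals (log2 fold change 0.25 with an SE of 0.084), and Ppp2r5c, at 122, 129, 128, 123 and 131 TPM in the controls and 135, 142 and 141 TPM in the stress-low animals (log2 fold change 0.15 with an SE of 0.056). The groups did not overlap in any of these 3 genes, as in 337 of all 972 gene models at an unadjusted p under 0.05. Ppp2cb is also on the study's list, which was chosen on these same animals. Against controls 28 and 32 alone 5 of the 15 were higher, against 4.57% of all genes. The scaffold gene Ppp2r1a was at -0.028 (SE 0.083). In the Ras and MAP kinase list 4 of 28 were higher (3.88% over all genes) and Mras was lower, but 2 were higher against controls 28 and 32 and 0 with animal number above 20 as a covariate. Ppp1cb and Shoc2, which form a phosphatase complex with Mras, were among the higher ones (log2 fold change 0.27, SE 0.10, and log2 fold change 0.23, SE 0.10), as was the Ras GTPase-activating protein Rasa1 (log2 fold change 0.24, SE 0.10). Of 35 genes of insulin signaling 3 were higher (Socs5, Socs6 and Insr) and 2 lower, the kinases Akt1 (log2 fold change -0.14, SE 0.059) and Akt2 (log2 fold change -0.17, SE 0.065). Rasa1 (0.14, SE 0.085), Socs6 (0.14, SE 0.16), Insr (0.082, SE 0.077), Akt1 (-0.078, SE 0.067) and Akt2 (-0.16, SE 0.088) did not reach an unadjusted p under 0.05 against controls 28 and 32 alone. Ppp2r5c without animal 33 (0.14), Ppp1cb without animal 33 (0.17) and Shoc2 without animal 2, 17, 32, 33 or 34 (0.17 to 0.22) no longer had an unadjusted p under 0.05. Rasa1 without animal 2, 17, 22 or 33 (0.17 to 0.23), Socs6 without animal 2, 14, 17, 28, 33 or 34 (0.22 to 0.27) and Insr without animal 2, 14, 17, 28, 33 or 34 (0.12 to 0.16) no longer had an unadjusted p under 0.05. Akt1 without animal 2, 17, 28, 33 or 34 (-0.15 to -0.11) and Akt2 without animal 33 or 34 (-0.14 to -0.13) no longer had an unadjusted p under 0.05.

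Calls among genes tied to the stress axis and to neuronal activity rested on few genes. Of 21 glucocorticoid-related models 1 was higher (4.76%, against 3.88% of all genes) and 2 lower (9.52%, against 3.03%). The median log2 fold change was -0.0249, with 13 negative and 8 positive signs. The 21 models summed to 900.5 to 988.1 TPM in controls and 867.5 to 896.4 TPM in stress-low animals, without overlap but with nearly touching ranges. In every other list that was summed the groups overlapped. The sums were not tested. Against controls 28 and 32 alone 1 was higher and 1 lower. The receptors themselves, Nr3c1 and Nr3c2, were at 0.0079 and -0.015 (SE 0.081 and 0.072). Ddit4, an inhibitor of mTOR signaling induced by glucocorticoids and energy stress, was at 79.4, 60.8, 60.8, 72.0 and 73.8 TPM in the controls and 56.1, 56.9 and 58.2 TPM in the stress-low animals. All stress-low animals were under the lowest control (log2 fold change -0.27 with an SE of 0.085). Mt1a, a metallothionein, was 51.9 ± 6.16 TPM in controls and 37.8 ± 3.73 TPM in stress-low animals (log2 fold change -0.47, SE 0.17), also without overlap. Sgk1, a kinase induced by glucocorticoids that oligodendrocytes also express, was 39.7 ± 5.76 TPM in controls and 48.4 ± 7.79 TPM in stress-low animals (log2 fold change 0.30, SE 0.14), with overlap. Fkbp5, the cochaperone that restrains the glucocorticoid receptor, was at -0.038 (SE 0.12). Of 5 tested genes of the CRH and proopiomelanocortin axis only Tbx19 was called, and Pomc itself, at 1.59 to 2.73 TPM in controls and 2.01 to 2.64 TPM in stress-low animals, was not (SE 0.28). Mt1a (-0.46, SE 0.22) did not reach an unadjusted p under 0.05 against controls 28 and 32 alone. Sgk1 (0.49, SE 0.13) had a log2 fold change over 1.5 times as large against controls 28 and 32 alone. Mt1a without animal 33 (-0.39) and Sgk1 without animal 2, 28, 32, 22 or 34 (0.16 to 0.31) no longer had an unadjusted p under 0.05.

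Of 22 immediate early genes, which report recent neuronal activity, 1 was higher (4.55%, against 3.88% of all genes) and 2 lower (9.09%, against 3.03%). In 18 of the 22 the sign was negative, and the median log2 fold change was -0.0941. Against controls 28 and 32 alone the median was -0.0376, with 0 higher and 1 lower. Arc, which regulates AMPA receptor endocytosis, was at 44.9, 35.7, 33.1, 30.8 and 25.1 TPM in the controls and 26.1, 22.9 and 30.5 TPM in the stress-low animals (log2 fold change -0.34 with an SE of 0.15). The groups overlapped, and against controls 28 and 32 the log2 fold change was -0.054. Junb was 39.9 ± 3.38 TPM in controls and 34.3 ± 2.92 TPM in stress-low animals (log2 fold change -0.21, SE 0.093) and Homer1 was 20.5 ± 1.17 TPM in controls and 23.0 ± 2.36 TPM in stress-low animals (log2 fold change 0.18, SE 0.082). Fos was at -0.58 (SE 0.30). Of 15 clock genes Nr1d1 was lower and Clock higher (log2 fold change 0.22, SE 0.10). Of 22 neuropeptide genes 1 was called, Pdyn, the precursor of the dynorphin opioids in granule cells and mossy fibers, at 199, 125, 119, 177 and 216 TPM in the controls and 112, 86.7 and 147 TPM in the stress-low animals (log2 fold change -0.52 with an SE of 0.22), with wide scatter among controls. In the stress-high animals, which scored 13 to 15, Pdyn was 69.3 ± 19.6 TPM. Of 32 proteasome models 2 were higher and 2 lower, of 21 heat shock models 1 was higher, Hspa4l (log2 fold change 0.21, SE 0.095), of 9 neurotrophin genes Slitrk5 alone was higher, and of 13 models of the BCOR Polycomb complex Skp1 was higher (log2 fold change 0.18, SE 0.084) and Bcor lower. Junb (-0.11, SE 0.10), Homer1 (0.21, SE 0.093) and Clock (0.16, SE 0.13) did not reach an unadjusted p under 0.05 against controls 28 and 32 alone. Arc without animal 2, 14, 22 or 33 (-0.34 to -0.23), Junb without animal 2, 14, 22 or 33 (-0.18 to -0.16) and Homer1 without animal 2, 17, 28, 32, 22 or 33 (0.11 to 0.18) no longer had an unadjusted p under 0.05. Clock without animal 2, 14, 17, 28, 33 or 34 (0.10 to 0.25), Pdyn without animal 2, 28, 32, 22 or 33 (-0.51 to -0.35) and Hspa4l without animal 2, 17, 28, 32, 22 or 33 (0.16 to 0.22) no longer had an unadjusted p under 0.05. Skp1 without animal 2, 17, 28, 32, 22 or 33 (0.14 to 0.19) no longer had an unadjusted p under 0.05.

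The same contrast was available in the basolateral amygdala (BLA), where 6 controls were set against stress-low animals 22, 30 and 34. Control animal 2 was left out of the BLA as in earlier processing of these data, and animal 35, whose BLA labels name both control and stress, was taken as control. Most animals gave both regions, so that the contrasts are not independent. In the BLA 2.75% of 15230 gene models had an unadjusted p under 0.05. The difference between the 2 contrasts was tested as an interaction. It passed the adjusted threshold for no gene of 15453 with edgeR, and 496 (3.21%) had an unadjusted p under 0.05. That fit ignores the shared animals. With animal as a term, over the 4 control and 2 stress-low animals with both regions, 442 (2.84%) had an unadjusted and 0 an adjusted p under 0.05. Tbx19 (-0.77, SE 0.30) and Tecpr2 (-0.16, SE 0.073) were among the single-model genes of the study's list with an unadjusted p under 0.05 in the BLA. Tcp11l1 stood at 0.0020 in the BLA, and the difference between regions was 0.54 (SE 0.14). For Nipsnap3b the difference was 0.42 (SE 0.12), for Slitrk5 0.21 (SE 0.082), for Rnf112 -0.17 (SE 0.068) and for Pnkd -0.18 (SE 0.085). None of these had an adjusted p under 0.05. With animal as a term the differences were 0.52 (SE 0.16) for Tcp11l1 and 0.39 (SE 0.16) for Nipsnap3b, and Slitrk5 (0.12), Rnf112 (-0.17) and Pnkd (-0.19) no longer had an unadjusted p under 0.05. Ribosomal models had medians of 0.0464 (small subunit) and 0.0131 (large subunit) in the BLA and none was called there, while the oligodendrocyte markers had a median of 0.183 with 1 called.

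**Figure D5:**
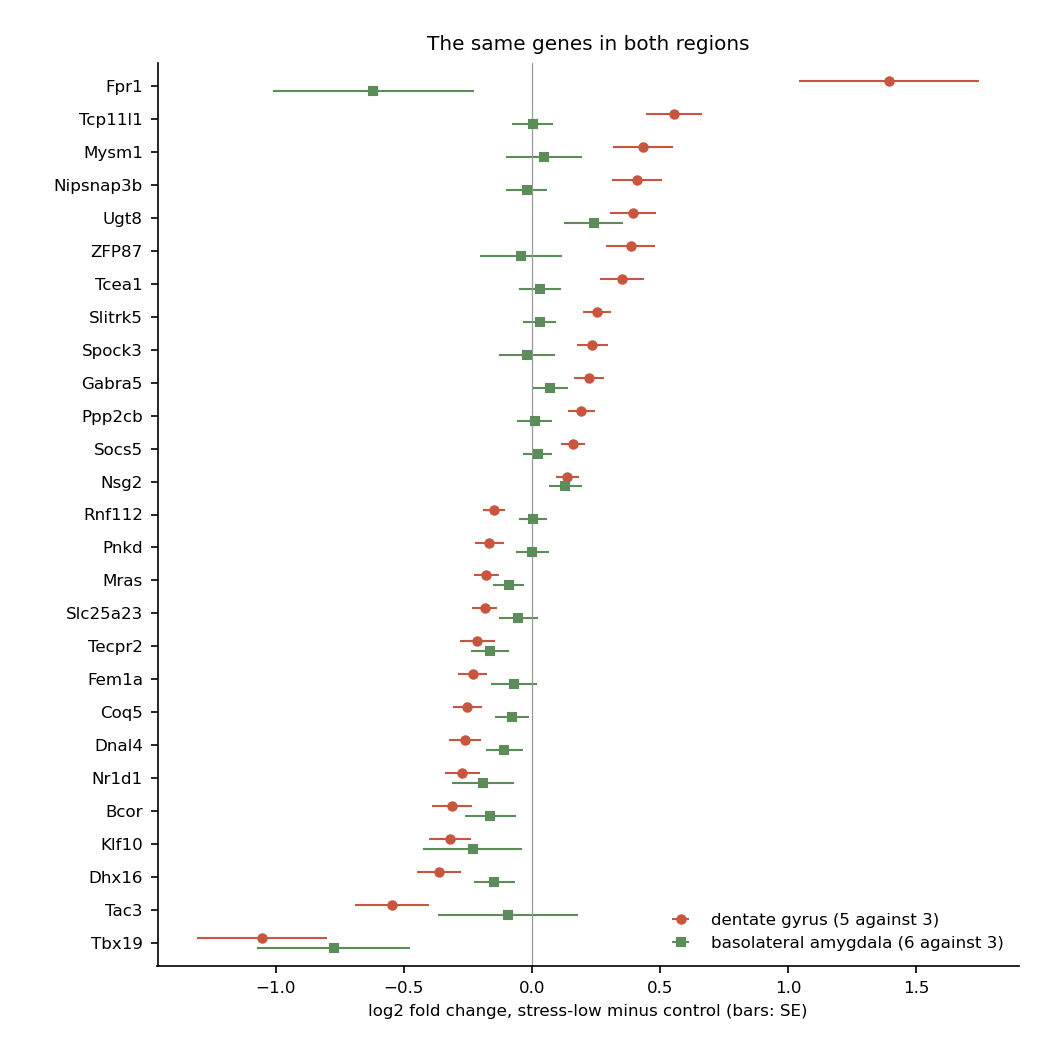
Log2 fold change (stress-low minus control) with its standard error in the DG (red circles) and the BLA (green squares) for the single-model genes that the study names and the further genes with the smallest p-values in the DG. Tbx19 and Tecpr2 lie on the lower side in both regions, and Tcp11l1 and Nipsnap3b lie near 0 in the BLA.

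The stress-high animals of the DG give another set of levels, although each comparison with them shares either the controls or the stress-low animals. Tcp11l1 was at 13.7, 13.3 and 17.7 TPM in the stress-high animals and Slitrk5 at 43.3, 43.5 and 47.0 TPM in the stress-high animals. For both genes the stress-high mean lay between the other 2 groups. Tbx19 was at 3.96, 3.72 and 2.80 TPM in the stress-high animals, in the range of the controls or above it. Mt1a had a mean of 62.6 TPM and Mfge8 of 102 TPM in stress-high animals, at or above the control means. Gabra5 at 105 TPM, Snap25 at 1454 TPM and Nr1d1 at 66.1 TPM had stress-high means near those of the controls. The gene lists varied among stress-high animals 7, 19 and 20. Median deviations from the control mean were 0.287, 0.0904 and -0.0958 for oligodendrocyte markers. For the small ribosomal subunit they were -0.026, -0.00888 and -0.0827, and for the large subunit -0.0282, 0.0198 and -0.083. The list shifts are thus not shown to be particular to stress-low animals.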

How the data were processed

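Poly-A RNA of the left dorsal DG was sequenced with 1 library per animal. The authors aligned reads to the rat Rn5 assembly with STAR 2.6.0a and the annotation of Ensembl build 75, and gene levels were estimated with RSEM 1.3.1. The authors deposited 1 long table per region with an expected count (reads assigned to a gene by RSEM, not always whole), a TPM value, a FPKM value, which was not used, and lengths for 26312 gene identifiers, unfiltered. Reads matching more than 1 gene are divided between them, and gene models with the same name may share reads. The strand setting is not given in the sources used here.

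Expected counts were rounded, filtered with edgeR's filterByExpr (minimum count 10), scaled by TMM and tested with the quasi-likelihood F-test of edgeR 4.0.16 in R 4.3.3, with the 3 DG groups (11 libraries) in 1 fit and Benjamini-Hochberg adjustment over 14080 gene models. Differences are given with their standard error (SE), an unadjusted p under 0.05 serves only to count genes, and a printed adjusted p is from this fit across all genes. Fold changes are stress-low minus control. Over all gene models the SE of the log2 fold change had a median of 0.106 and the common biological coefficient of variation was 0.0994. The study used EBSeq, which was not run here. DESeq2 1.42.0 and limma 3.58.1 (log2 of TPM + 1 or + 0.1, mean TPM of at least 0.5) were alternatives. On simulated counts, only simple edgeR, DESeq2 and limma fits of control against stress-low were tried, with limma on log2 CPM. The fit of 3 groups and the other alternatives were not run on simulated data. Length classes and medians per animal used log2(CPM + 0.5). Animals were the replicates. Each p-value sets the group difference against the spread between animals, estimated over the 3 groups with information shared across genes. Rats were housed and run in pairs, and which animals formed a pair is not given in the sources used here.

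Genes were named by rule: the names the study gives for this comparison, the 10 higher and 10 lower genes with the smallest unadjusted p under 0.05, a name held by 1 model and no overlap in TPM, and up to 3 genes per list with the smallest p under 0.05. Further list members are named to show what did not pass. Members and lists were chosen with earlier results of these data known. Some genes that the rule picked are not reported here.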

Additional observations from a re-analysis of the deposited data

Results flagged for a closer look

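Levels in the 5 controls were searched for single animals far from the rest by Dixon's test (critical value 0.71) in the 78 named gene models that were fitted, and 6 were found, where chance gives about 1 in 20. Control animal 14 was the animal in 5 of the 6. It was low for Rps28 at 1110.39 TPM (others 1281.33 to 1347.62 TPM), for Mras at 148.22 TPM (163.16 to 168.96 TPM) and for Atp5g2 at 435.0 TPM (508.44 to 536.44 TPM). It was high for MT-ATP8 at 20222.74 TPM (10351.87 to 11396.31 TPM) and for Homer1 at 22.45 TPM (19.56 to 20.37 TPM). In each of these 5 genes the animal lay on the side of the stress-low group. Control animal 17 was high for the minor gene model RPS18 at 44.73 TPM, with the others between 32.37 and 35.41 TPM. Without animal 14 the number of gene models with an unadjusted p under 0.05 was 1587, against 972 with it.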

How the results depend on the processing

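The 16 single-model names of the study were each under an unadjusted p of 0.05 in all alternatives except 14 of 16 with all 12 DG libraries, with animal number above 20 as a covariate and with only animals numbered above 20. The number of genes at an adjusted p under 0.05 was 0 except for 4 with DESeq2 and 1 with only animals numbered above 20. The number at an unadjusted p under 0.05 was 762 with a replicate block and 1205 with only animals numbered above 20, and it ran from 581 (without stress-low animal 33) to 1587 (without control animal 14) when single animals were left out, with 635 without control animal 2. The number for the difference between regions, 496, ran from 399 to 818 (without control animal 14) when single DG animals were left out, and was 388 with all mapped libraries and 442 with animal as a term, a fit chosen after seeing the data. Deviations of animals with the same title number correlated at -0.0596 to 0.108, and the replicate block made no adjusted call. These few correlations cannot exclude a pairing of animals. Of 78 named gene models 72 kept their sign in every alternative, and the other 6 all belong to names held by more than 1 gene model. Most of the 78 were named for differences in these same animals, which the alternatives reuse. A kept sign is therefore not separate evidence. With the models of a name summed, HMGB3 was 0.2014 and UBALD1 was 0.04495. The minor model RPS18 was 0.004937 with the covariate and 0.002136 with only animals above 20, and -0.1215 to 0.006033 without single animals. The minor model RPS28 was 0.4351, 0.4336 and -0.5053 to 0.04201 in the same fits. The abundant model Ubald1 was -0.04507 with all 12 libraries, -0.001175 with the covariate, -0.004639 with only animals above 20 and -0.006078 to 0.1468 without single animals, and Faah was -0.1112 to 0.000284. The cause of these changes was not tested. The precision is limited by the 3 stress-low animals, with a median standard error of 0.106 on the log2 scale.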
